A study of Mus musculus with 5 samples.

Results

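The piRNAs described here are 29 or 30 nucleotides (nt) long, begin with T (a uridine in the RNA), and stand in at least 1 of the 6 lists in which the authors set a single Mtdh-/- testis library against the wild-type libraries. Of 4222 listed piRNAs, 2230 (52.8%) met this rule, 872 of them with 29 nt and 1358 with 30 nt. A piRNA entered a list when its normalized value, with 10 added, was at least 2-fold above or below the mean of the wild-type values with 10 added. Every member was thus chosen by the contrast between the genotypes. Its fold values are a description and were not tested.

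The study profiled testis small RNA of C57BL/6 mice aged 6 months, with 2 wild-type and 3 Mtdh-/- libraries. Mtdh-/- is the labels' name for mice deficient in exon 3 of Mtdh, the gene of metadherin, a membrane-associated protein studied mostly in cancer. No treatment is labelled, and the labels do not tie the libraries to separate animals, so the spread between libraries may be technical. Testis is a mixture, so fewer cells of a type and less RNA per cell cannot be told apart.

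PIWI-interacting RNAs (piRNAs) are small RNAs that guide PIWI proteins in the germ line. In the mouse testis, most are made at the pachytene stage of meiosis from long single-stranded precursors, many of them long noncoding RNAs and some the 3′ UTRs of mRNAs. Those bound by MIWI (PIWIL1) are typically near 30 nt and start with uridine, while those bound by MILI (PIWIL2) are shorter. The length and first base used here match MIWI piRNAs, but no PIWI protein was pulled down, so the name of a binding partner is not attached to any member.

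The first sequences shown are 6 of the members listed lower in all 3 Mtdh-/- libraries, namely those that match a single annotated noncoding exon. Capitals mark the letters TGGA where they start between base 5 and base 21, a feature described further on, and sequences are given 5′ to 3′ with T for uridine.
mmu_piR_020892: tccttggttttgtctgcttagctagcctgg
mmu_piR_025419: tactataaggTGGAtgaaaatgacaaaatt
mmu_piR_009404: tatcataacccaTGGAtgtctctcattgt
mmu_piR_018484: tcaattggtaaggtgcttgcctagcgtgc
mmu_piR_016731: tgtgtttgaaTGGAtttttgcaagtttcc
mmu_piR_012938: tgttaattaagggtcattcatattcaaga
The 3 that carry capitals hold the word at base 11, 13 and 11, in the order printed.

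The next sequences are the members with the highest wild-type means at the leading noncoding loci, shown because the loci with most members are described through them. mmu_piR_037619 and mmu_piR_009390 lie in Gm21269, mmu_piR_030839 and mmu_piR_014992 in Gm49794, mmu_piR_036192 and mmu_piR_036532 in 1700001L05Rik, and mmu_piR_008509 in Gm5878. mmu_piR_020892, printed above, is the other of the pair from Gm5878.
mmu_piR_037619: tagcaTGGAtggtgagctaggaaagctacc
mmu_piR_009390: ttggaaagagcaaaccatgatctggggtaa
mmu_piR_030839: taacagtccactctggcagaagctgacagt
mmu_piR_014992: tacacagatctgaggtttcaagggttgcta
mmu_piR_036192: tgatactcggaatttggcacagctctgctt
mmu_piR_036532: tgtgattggtatctgcatgagcaaaagacc
mmu_piR_008509: tagttgcctgggaaactctgtgtggaagt
Only mmu_piR_037619 of these 7 holds the word in the marked stretch, at base 6. In mmu_piR_008509 the same letters occur nearer the 3′ end, and in mmu_piR_009390 near its 5′ end.

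The libraries were checked with testis miRNAs before the piRNAs were read. All 8 germ-cell miRNAs (among them miR-34c-5p, miR-449a-5p and miR-470-5p) were counted in every library, and both arms of the Sertoli-cell miR-202 as well. The summed germ-cell level was 121779 and 122301 CPM (counts scaled to a common miRNA total) in the wild-type libraries and between 48940 and 95157 in the Mtdh-/- libraries, and its part in the piRNA results was not tested. Taken singly, the genotypes overlapped in 7 of the 8 miRNAs. Only miR-465c-5p separated them, with 9687 and 22471 CPM in wild type 1 and 2 and between 7528 and 8078 CPM in the Mtdh-/- libraries. There are only 10 ways to split 5 libraries into 2 and 3, so 1 separation among 8 miRNAs is not read as a difference. It was not tested. The near-equal wild-type sums hid opposite differences, for example 49183 and 10726 CPM for miR-34c-5p and 6896 and 39957 CPM for miR-470-5p in wild type 1 and 2. The 4 miRNAs of smooth muscle and stroma summed to between 71526 and 118580 CPM with the genotypes overlapping, the 3 of blood to between 57.5 and 251, the 3 of muscle to between 268 and 1777 with miR-206-3p at 0 throughout, and the liver miRNA miR-122-5p to at most 41.9. How many piRNA tags lie behind each library is not known. Values under 15 tended to come in steps of about 0.659, 0.444, 0.621, 1.05 and 0.568 units in wild type 1, wild type 2, Mtdh-/- 1, Mtdh-/- 2 and Mtdh-/- 3. Within 0.05 units of a whole number of steps lay 92.9%, 66.1%, 69.9%, 93.6% and 95.1% of them, so a value of a few units is only a few steps above 0. Whether a step stands for a single tag is not known.

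The wild-type libraries stood apart from each other, and this bears on every list below. Among the 2230 members, 589 were at least 2-fold higher in wild type 2 and 271 at least 2-fold higher in wild type 1, together 38.6%. Over all 4222 listed piRNAs these shares were 25% for wild type 2 higher and 13.1% for wild type 1 higher, beside 26.4% and 12.2% of the members. The median log2 ratio of wild type 2 to wild type 1 (10 added to each value) was 0.23, with the 5th to 95th percentile from -1.71 to 2.42. Wild-type values of the members ranged from 0 to 6199.7 with a median of 16.25 in wild type 1, and from 0 to 6935.1 with a median of 26.4 in wild type 2. Under 10 units were 38.3% of the members in wild type 1 and 28.1% in wild type 2.

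The Mtdh-/- libraries differed in how many members they listed. Mtdh-/- 1 listed 518 members higher and 389 lower, beside 22.5% and 18.2% of all 4222 piRNAs. For the members these counts are 23.2% and 17.4%. Mtdh-/- 2 listed 650 higher and 728 lower, or 29.1% and 32.6% of the members beside 31.1% of all piRNAs in each direction. Mtdh-/- 3 listed 174 higher and 366 lower, or 7.8% and 16.4% of the members beside 8.55% and 15.7% of all. The shares of members are thus near those of all listed piRNAs in each library. All 3 comparisons use the same wild-type libraries. Mtdh-/- 2, which listed the most members, had the lowest miRNA total of the 5 libraries. Of its 728 members listed lower, 94 were at 0 in that library. In Mtdh-/- 1 this was 5 of 389 and in Mtdh-/- 3 it was 14 of 366. Whether depth bears on these counts was not tested.

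Most members were listed in 1 library only. That held for 1762 (79.0%), while 341 were listed in 2 and 127 in all 3. By direction, 1170 members were only ever listed higher, 984 only lower, and 76 (3.41%) were listed higher in one Mtdh-/- library and lower in another. The largest single classes were 556 members listed higher in Mtdh-/- 2 alone, 417 listed higher in Mtdh-/- 1 alone and 409 listed lower in Mtdh-/- 2 alone.

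The members were then set against each wild-type library by itself. A value 2-fold above the wild-type mean, with 10 added, must exceed both wild types, so 100% of the members and of all piRNAs listed higher did so by arithmetic. A value 2-fold below the mean need not lie below both, and the counts that follow use the same values as the rule. Of members listed lower, 247 of 389 (63.5%, beside 62.5% of all piRNAs listed lower there) lay below both wild-type libraries in Mtdh-/- 1. In Mtdh-/- 2 this was 578 of 728 (79.4%, beside 77.8%) and in Mtdh-/- 3 it was 179 of 366 (48.9%, beside 49.5%).

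Fewer members passed 2-fold against each wild type. The higher lists kept 356 members in Mtdh-/- 1 (68.7%, beside 67.6% of all piRNAs), 468 in Mtdh-/- 2 (72.0%, beside 71.2%) and 39 in Mtdh-/- 3 (22.4%, beside 22.7%). The lower lists kept 37 (9.51%, beside 9.9%), 156 (21.4%, beside 20.4%) and 7 (1.91%, beside 2.11%). The lists were then set against 1 wild type alone. Against wild type 1, that is without wild type 2, the lower lists held 159, 333 and 11 members past 2-fold, or 40.9%, 45.7% and 3.01% of their members beside 44%, 44.9% and 3.17% of all piRNAs in them. The higher lists held 475, 563 and 50, or 91.7%, 86.6% and 28.7% beside 90.5%, 85.4% and 28.5%. Against wild type 2 the lower lists held 267, 551 and 362, or 68.6%, 75.7% and 98.9% beside 65.9%, 75.6% and 98.9%. The higher lists held 399, 555 and 163, or 77%, 85.4% and 93.7% beside 77.1%, 85.8% and 94.2%. Members and all listed piRNAs thus had near-equal shares throughout, though the members are themselves 52.8% of all listed piRNAs. The lower list of Mtdh-/- 3 lost most of its members without wild type 2.

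**Figure D1:**
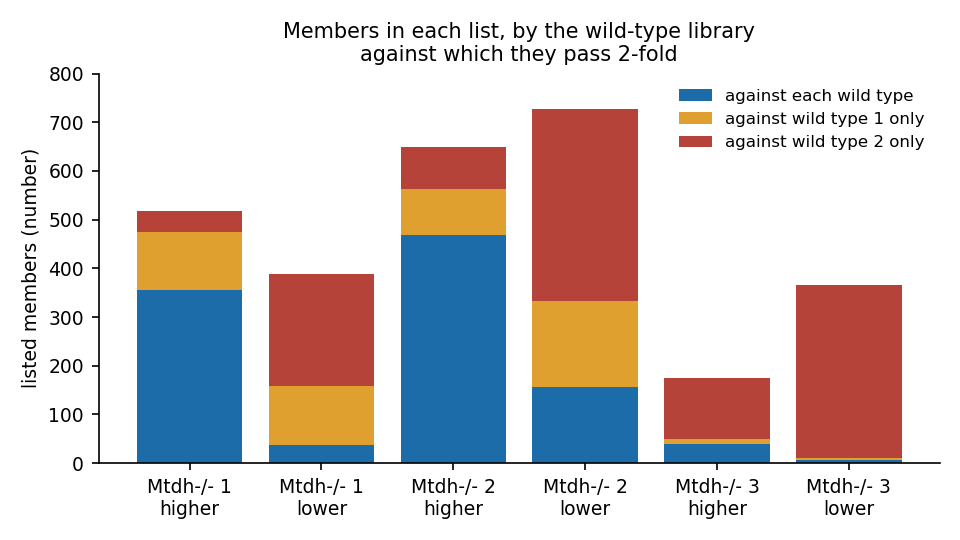
Number of members in each of the 6 lists (x axis, Mtdh-/- library and direction), with each bar divided by whether the member passes 2-fold against each wild-type library, against wild type 1 only or against wild type 2 only. In the Mtdh-/- 3 lower list 355 of 366 members pass against wild type 2 only, while in the Mtdh-/- 2 higher list 468 of 650 pass against each.

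The lower list of Mtdh-/- 3 rests almost wholly on wild type 2. Its 366 members had median values of 9.1 in Mtdh-/- 3, 10.5 in wild type 1 and 78.65 in wild type 2. The median log2 ratio was 0.00 to wild type 1 and -1.99 to wild type 2. The members listed lower in Mtdh-/- 1 had median log2 ratios of -0.60 to wild type 1 and -1.69 to wild type 2, and those of Mtdh-/- 2 of -0.89 and -1.59.

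Members that differed between the wild types are given here by list, as a description: 1 high wild type raises the mean that the lists use and so favours a lower call. Of the 589 members at least 2-fold higher in wild type 2, 205 (34.8%) were listed lower in Mtdh-/- 1, 325 (55.2%) in Mtdh-/- 2 and 337 (57.2%) in Mtdh-/- 3, beside 37%, 55.1% and 58% of all such piRNAs. Listed higher were 72 (12.2%), 44 (7.47%) and 0 of them, beside 12.7%, 7.86% and 0.0947%. Of the 271 at least 2-fold higher in wild type 1, 101 (37.3%) and 104 (38.4%) were listed lower in Mtdh-/- 1 and Mtdh-/- 2, beside 39.8% and 36.2% of all such piRNAs, and 19 (7.01%) and 50 (18.5%) higher, beside 6.51% and 19%. Mtdh-/- 3 listed 1 of these 271 lower (0.369%, beside 0.362%) and 73 higher (26.9%, beside 28.4%). In those 73 and 1 other with a value, Mtdh-/- 3 had a median log2 ratio of 0.56 to wild type 1 and 2.21 to wild type 2.

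**Figure D2:**
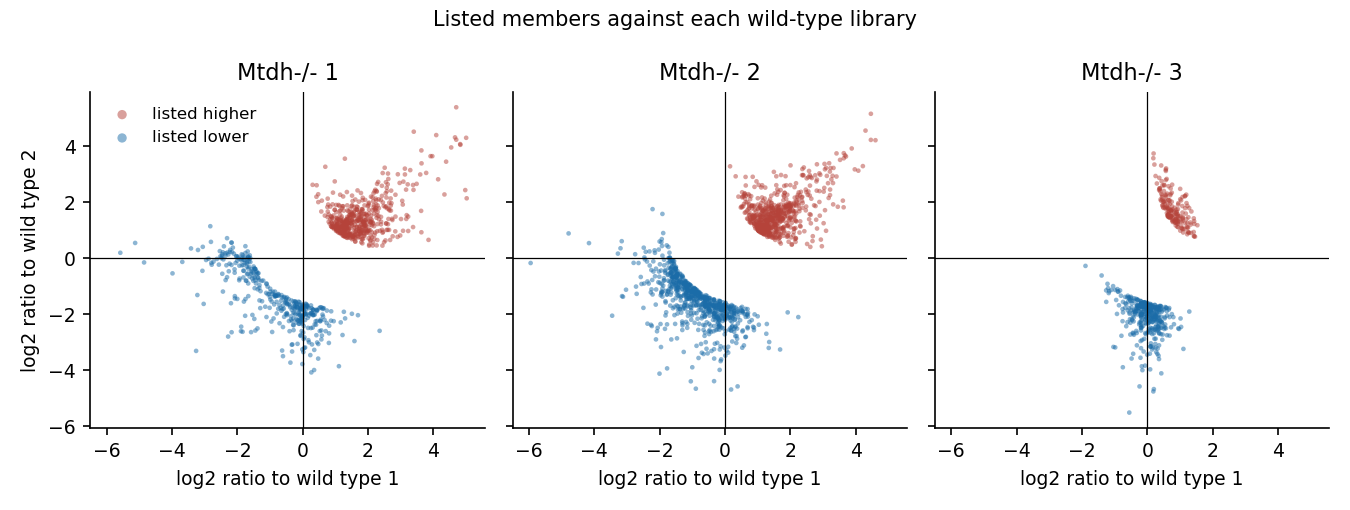
Each point is a member listed in that Mtdh-/- library (higher in red, lower in blue), placed by its log2 ratio to wild type 1 (x axis) and to wild type 2 (y axis), with 10 added to each value. The blue points of Mtdh-/- 3 lie around 0 on the x axis and below 0 on the y axis, with medians of 0.00 and -1.99, and the empty corner between the clouds is set by the 2-fold threshold.

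The members listed lower in all 3 Mtdh-/- libraries numbered 104 (4.66%, beside 5% of all listed piRNAs), and wild type 2 held the highest value in 104 of 104. The median value was 9.8 for wild type 1, 103.55 for wild type 2, and 11.8, 8.4 and 10.5 for Mtdh-/- 1, 2 and 3. Wild type 1 lay within the range of the Mtdh-/- libraries for 50 of them, below it for 35 and above it for 19. The genotypes thus overlapped, through wild type 1, in all but those 19. Of all 211 piRNAs listed lower in all 3, wild type 2 was highest in 210. Wild type 1 lay above the Mtdh-/- range in 38 of the 211, so the members were not particular in this.

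The strongest of the 104 members was mmu_piR_018225. It had 10.5 in wild type 1, 631.7 in wild type 2, 34.2 in Mtdh-/- 1, 16.8 in Mtdh-/- 2 and 4.0 in Mtdh-/- 3. Wild type 1 sat among the Mtdh-/- libraries. Its folds were 7.49, 12.4 and 23.7 lower, the last being the most extreme of the Mtdh-/- 3 lower list.
mmu_piR_001933 was the most abundant of the leading 8, with wild types 1 and 2 at 50 and 690.4, against 73.6, 44.7 and 64.7 in Mtdh-/- 1, 2 and 3. mmu_piR_027345 had 2.6 and 200.4 in the wild types and 7.5, 0 and 3.4 in the Mtdh-/- libraries. In mmu_piR_012729 wild type 1 (29.6) lay above every Mtdh-/- library (21.4, 12.6 and 24.4), with wild type 2 at 257.7. In mmu_piR_031911 it did so narrowly, with 18.2 against 18, 5.2 and 16.9 and wild type 2 at 375.2. The other 3 were mmu_piR_025931, mmu_piR_035052 and mmu_piR_014940, with wild type 2 between 98.6 and 367 and every other library at or below 33.5.

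Only 5 members (0.224%, beside 0.332% of all listed piRNAs) were listed higher in all 3 Mtdh-/- libraries. The list rule itself places their Mtdh-/- values above both wild types. mmu_piR_023012 was the most abundant, with wild types 1 and 2 at 890.1 and 397.6, against 1536.3, 1796.2 and 1391.6 in Mtdh-/- 1, 2 and 3. mmu_piR_031363 had 279.1 and 161.3 in the wild types and 559.1, 593.2 and 493.0 in the Mtdh-/- libraries. The lowest Mtdh-/- value of both stood above the highest wild-type value, but by less than 2-fold.
mmu_piR_006207 had 108.0 and 32.4 against 167.1, 249.4 and 227.2, mmu_piR_019994 had 188.3 and 106.2 against 334.5, 391.9 and 356.1, and mmu_piR_033479 had 29.4 and 4.7 against 64.9, 58.7 and 52.1. In 5 of 5, wild type 1 was above wild type 2 and therefore nearer the Mtdh-/- libraries. None of the 5 matched an annotated exon, so their place in the genome is not given here.

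**Figure D3:**
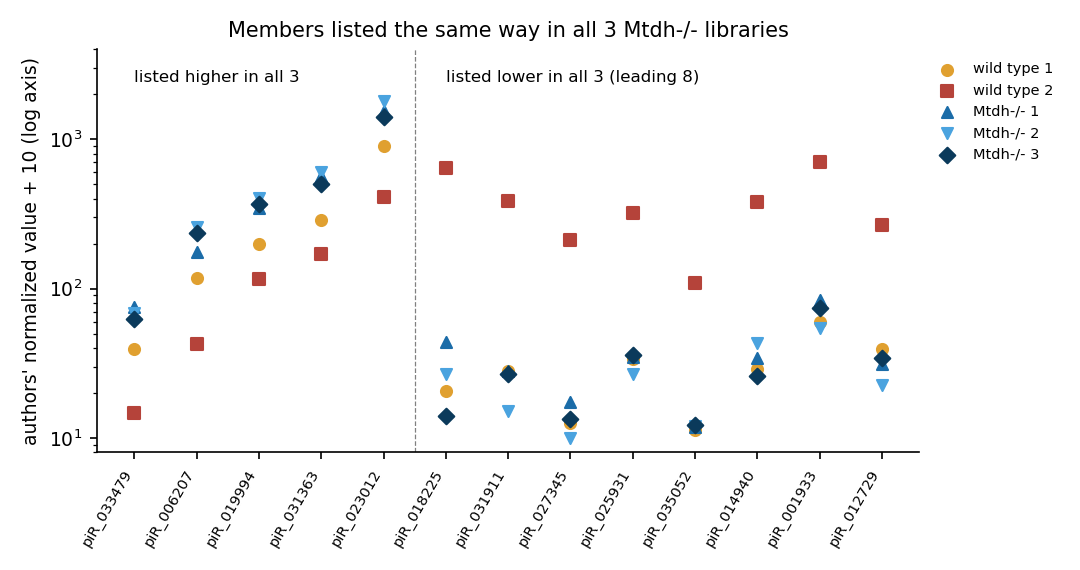
The authors' normalized value plus 10 (y axis, log scale) in each of the 5 libraries for the 5 members listed higher in all 3 Mtdh-/- libraries (left of the dashed line) and the leading 8 of 104 listed lower in all 3 (right). On the left the list rule places all Mtdh-/- points above both wild types. On the right the wild type 2 square stands alone and wild type 1 lies with the Mtdh-/- points.

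Values in all 5 libraries were at hand for 161 members, from the 6 lists and the authors' group tables. Of these, 127 were listed in all 3 Mtdh-/- libraries. The others came in through group tables selected by fold and p-value between the genotypes. Both choices favour a separation of the genotypes, so the counts that follow are a description. Every Mtdh-/- library was above both wild types in 26 (16.1%, beside 15.1% of all 311 such piRNAs) and below both in 31 (19.3%, beside 17.7%). Wild type 2 was the highest library in 111 of the 161, beside 220 of the 311. The median log2 ratio of the Mtdh-/- mean to the wild-type mean was -1.36. Without wild type 2 it was 0.20 and without wild type 1 it was -2.02, so the sign of this median depends on 1 library. Without wild type 2 the members with every Mtdh-/- library higher numbered 65 (40.4%, beside 37.6% of the 311). Without wild type 1 those with every Mtdh-/- library lower numbered 116 (72.0%, beside 73.3%).

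None of the extreme members of the single lists was among the 6 with the highest wild-type mean. mmu_piR_006645 was the most extreme of the higher lists of both Mtdh-/- 1 and Mtdh-/- 2, with wild types 1 and 2 at 46.1 and 24.4, against 1445.6 and 1228.2 in these Mtdh-/- libraries (32.2-fold and 27.4-fold). Both Mtdh-/- values stood far above both wild types. No value of Mtdh-/- 3 was at hand, but mmu_piR_006645 was not listed there, which by the list rule places it under 2-fold in that library. mmu_piR_003201 was the most extreme of both lower lists, with 736.0 in wild type 1 but 3.6 in wild type 2, 5.6 in Mtdh-/- 1 and 2.1 in Mtdh-/- 2. Here wild type 2 lay with the Mtdh-/- libraries. mmu_piR_027161 led the Mtdh-/- 3 higher list, with 271.2 and 122.6 in the wild types, 1006.1 in Mtdh-/- 2 and 632.7 in Mtdh-/- 3.

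The most abundant members by wild-type mean were all listed lower, and each in 1 or 2 libraries. The lists set each Mtdh-/- value against this same mean, so ranking by it favours lower calls by construction. mmu_piR_023972 had 3144.3 and 5178.8 in wild type 1 and 2 and 841.8 in Mtdh-/- 1, below both. mmu_piR_011620 had 868.1 and 6935.1 in the wild types and 641.4 in Mtdh-/- 3, close to wild type 1. mmu_piR_016956 ran the other way between the wild types, with 5885.8 and 1562.2, and had 1061.4 in Mtdh-/- 1. In mmu_piR_011234 the wild types were 6199.7 and 1106.4 and Mtdh-/- 2 was 983.0. In mmu_piR_030210 they were 3216.0 and 955.3 and Mtdh-/- 2 was 736.7. mmu_piR_013500 had 3281.2 and 465.1, with 557.9 in Mtdh-/- 1 and 878.2 in Mtdh-/- 2, both above wild type 2. The Mtdh-/- values of the first 5 were lower than both wild types. In all but mmu_piR_023972 the wild types differed from each other by a larger fold than the lower of them differed from Mtdh-/-.

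Near the threshold, a member outside a list has a value only if a group table held it, so piRNAs closer to 2-fold may be unseen. In the Mtdh-/- 1 higher list the member nearest the threshold, mmu_piR_025347, had a fold of 2.00 from 13 in Mtdh-/- 1 and 2.6 and 0.4 in the wild types. The nearest member outside it with a value, mmu_piR_032955, had 1.99 from 59.3 against 29 and 20.7. In the Mtdh-/- 3 lower list, mmu_piR_005645 was just inside with 5.7 against 9.9 and 32.9, and mmu_piR_019797 outside at 1.68-fold with 47.7 against 83.0 and 90.6. Between 94 and 206 members of each list had a fold of at most 2.2.

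Short sequence words that the rule did not use went with the wild-type difference. They were found by ranking all 4-letter words held by at least 60 members, so they were chosen after the values were seen and have no test. The 4 words with the highest median log2 ratio of wild type 2 to wild type 1, of 224 ranked, were GGGT (1.39), GGAT (1.32), ATGG (1.19) and TGGA (0.94), and 3 of them overlap as ATGGAT. The lowest were CGAT (-0.64), ACGA (-0.60), GAAC (-0.45) and AACT (-0.41). TGGA, at rank 4, is the word described below. Members that hold TGGA share letters and sometimes a locus, so they are not independent.

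The stretch from base 5 to base 21 was also chosen after the medians by start base were seen, so its high median is no independent result. The 355 members (15.9%) with TGGA starting at base 5 to 21 had median values of 18.4 in wild type 1 and 64.5 in wild type 2, a median log2 ratio of 1.45, and 60.6% were at least 2-fold higher in wild type 2. The 79 members that hold it only at base 1 to 4 had medians of 31.6 and 24.2 and a median log2 ratio of -0.46. The 103 that hold it only after base 21 were at 0.06, and the 1691 without it at 0.15. The reverse complement TCCA at base 5 to 21 (133 members) was at 0.12. In the same stretch the overlapping words ATGG (377 members) and GGAT (225 members) were at 1.51 and 1.52. Of their holders, 66.3% and 67.6% were at least 2-fold higher in wild type 2, so TGGA was not the strongest word. By single start base of TGGA, the median was -0.53 at base 1 (75 members), 2.10 at base 6 (37 members), 2.12 at base 8 (28 members) and 0.10 at base 22 (16 members).

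**Figure D4:**
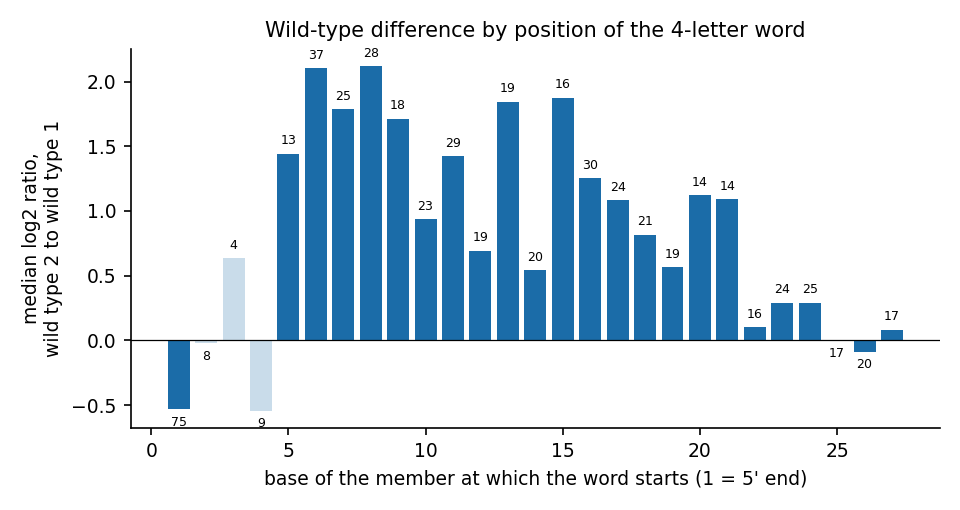
Median log2 ratio of wild type 2 to wild type 1 (y axis, 10 added to each value) of the members that hold TGGA at each start base (x axis, counted from the 5′ end), with the number of members at each bar and pale bars for fewer than 10. Start bases 5 to 21 all lie above 0, from 0.54 to 2.12, while base 1 lies at -0.53 and bases 22 to 27 between -0.09 and 0.29.

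The listed piRNAs of other lengths or first bases were divided in the same way. There the median log2 ratio was 1.15 for 292 piRNAs with the word at base 5 to 21, -0.36 at base 1 to 4 only (68), 0.12 after base 21 only (60) and 0.05 without it (1565). In both sets the stretch from base 5 to 21 had the highest median and base 1 to 4 the lowest, while the other classes lay near 0 in a different order.

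Since the lists use the wild-type mean, the shares by list are a description. The word was held at base 5 to 21 by 157 of 389 members listed lower in Mtdh-/- 1 (40.4%), 217 of 728 in Mtdh-/- 2 (29.8%) and 145 of 366 in Mtdh-/- 3 (39.6%). Among members listed higher it was held by 3.67%, 5.08% and 5.75%. In the other listed piRNAs these shares were 34.8%, 26.5% and 38.7% of the lower lists and 5.3%, 6.78% and 6.42% of the higher lists, so the members were not particular in this. Against wild type 1 alone, the share among members at least 2-fold lower was 17.6% of 159 in Mtdh-/- 1, 18% of 334 in Mtdh-/- 2 and 0 of 11 in Mtdh-/- 3. Against wild type 2 alone it was 52.8% of 267, 35.9% of 551 and 40.1% of 362. The lower share thus moved by more than 1.5 times with the wild-type library used.

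Of the 104 members listed lower in all 3 libraries, 70 (67.3%) held the word in this stretch, beside 58 of 107 (54.2%) of the other listed piRNAs. Among the 161 members with 5 values, 75 held it, and wild type 2 was the highest library in 72 of these. Their median values were 10.5 in wild type 1 and 109.7 in wild type 2, and 12.1, 8.4 and 13.6 in Mtdh-/- 1, 2 and 3. The other 86 had wild type 2 highest in 39, with medians of 13.5 and 44.55 in the wild types and 23.45, 14.7 and 15.75 in the Mtdh-/- libraries. The word was picked by the ratio of wild type 2 to wild type 1, so the high wild type 2 of its holders restates that choice.

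Base composition is given for the ends and base 10, with some other bases beside the latter. At base 2, A (36.2%) and G (35.0%) were the most frequent. An A at base 10, the mark left by ping-pong amplification, in which piRNAs of opposite strands overlap by 10 nt, stood in 32.3% of the members (Wilson 95% interval 30.4 to 34.3). It stood in 29.5% (26.0 to 33.3) of listed piRNAs with first base T under 29 nt, 31.2% (28.4 to 34.1) of those of 31 nt or longer, and 43.6% (38.6 to 48.7) of those not starting with T. The last base was C in 36.2% of members and A in 26.8%, and GC content averaged 42.6% ± 7.5 (SD over 2230 sequences), against 43.8% ± 8.0 in the other 1992. These intervals cover counting error only.

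Members rarely shared a 5′ end but often overlapped. Only 6 pairs had the same first 20 nt. In the pair with the highest summed wild-type values, the 29 nt mmu_piR_016261 is contained in the 30 nt mmu_piR_026663, and both match antisense to the 3′ UTR of Gsdme, the gene of the pore-forming protein gasdermin E. mmu_piR_016261 had 198.1 in wild type 1 and 228.0 in Mtdh-/- 3, but 7.7 in wild type 2, 6.2 in Mtdh-/- 1 and 12.7 in Mtdh-/- 2. mmu_piR_026663 had 287.3 in wild type 1, 30.8 in wild type 2, 30.4 in Mtdh-/- 1 and 43.1 in Mtdh-/- 2. Both were high in wild type 1 and low in wild type 2, Mtdh-/- 1 and Mtdh-/- 2, and the genotypes overlapped.
In the pairs mmu_piR_002610 with mmu_piR_038062, mmu_piR_008603 with mmu_piR_008604 and mmu_piR_007017 with mmu_piR_031192, both members were listed higher in the same single library. Shifted overlaps of at least 20 nt joined 246 pairs and 423 members (19%), with shifts of 1 to 10 nt.

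Precursors were sought by exact match to spliced transcripts of GENCODE M21 on mouse build GRCm38, since no genome sequence was used. Of the 2230 members, 351 (15.7%) matched, 323 of them at 1 place, 20 at 2 to 10 places and 8 at more than 10. Of the other listed piRNAs 14.4% matched. What follows describes the 323, which are 14.5% of the members, and says nothing of the rest. Their share listed higher only was 54.2% and lower only 40.6%, against 52.5% and 44.1% of all members.

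The 323 lay on 16 chromosomes, in 70 loci when neighbours within 10 kb were joined. Of these, 23 loci with at least 5 members held 233 (72.1%). In all, 270 (83.6%) were sense to the annotated gene. Noncoding precursors led: 180 (55.7%) were sense to 22 lincRNAs, 52 (16.1%) lay in the 3′ UTRs of 19 protein-coding genes, and 4 in coding exons. No pair of located members overlapped on opposite strands, and none had the 10 nt overlap of 5′ ends that marks ping-pong pairs, while 41 pairs overlapped on the same strand. Only these 323, all starting with T by the rule, were compared. Pairs with any other piRNA could not be seen, so this does not bear on ping-pong in the testis. The base after the 3′ end was A in 31.9%, T in 25.4%, G in 24.8% and C in 18%.

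**Figure D5:**
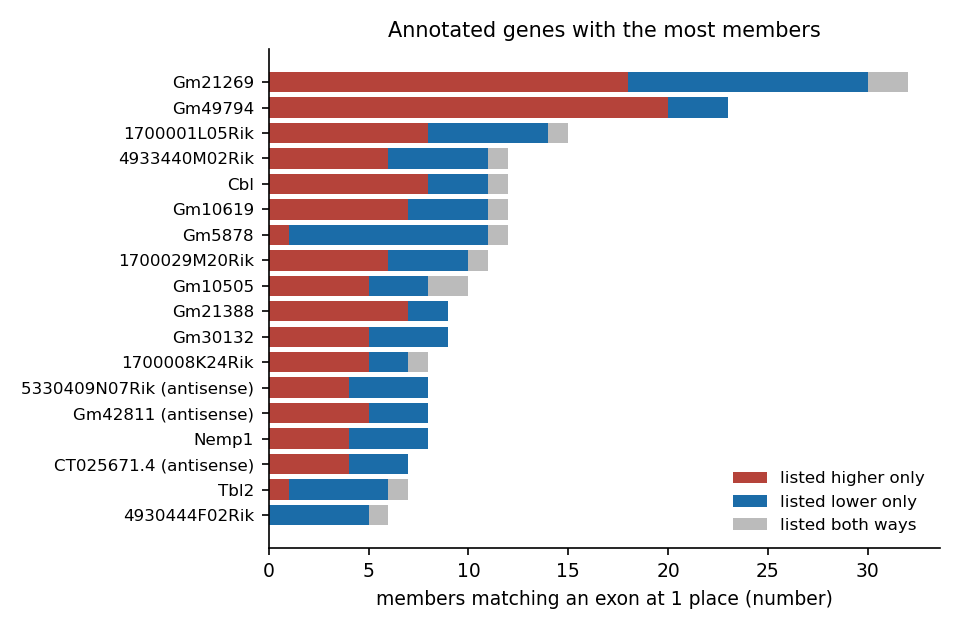
Number of members that match an exon at 1 place (x axis) in the 18 annotated genes with most members (y axis), divided by whether a member was ever listed higher only, lower only or both ways across the 3 Mtdh-/- libraries. Gm49794 holds 20 of 23 listed higher only and Gm5878 10 of 12 listed lower only, while most other genes hold both kinds. Of all 323 located members, 54.2% were listed higher only and 40.6% lower only.

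The locus with most members was divergent. On chromosome 7, 28 members on the plus strand and 10 on the minus strand lay within 16918 bp (chr7:73808823-73825740), matching the lincRNAs Gm21269 and Gm10619. Spans given for a gene or locus run from the first to the last base of its members. The locus listed 9 higher and 5 lower in Mtdh-/- 1, 10 and 14 in Mtdh-/- 2, and 3 and 4 in Mtdh-/- 3. Its leading member, mmu_piR_037619 at chr7:73824161-73824190 (plus strand), had 846.0 in wild type 1, 2136.3 in wild type 2 and 658.1 in Mtdh-/- 2. mmu_piR_009390 at chr7:73825581-73825610 had 370.0 and 648.2 in the wild types and 1307.7 in Mtdh-/- 1. One was listed lower and the other higher, from the same lincRNA and in different libraries.

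Gm49794, a lincRNA on the plus strand of chromosome 17 (chr17:27355016-27364126), held 23 members, of which 20 were only listed higher and 3 only lower. Over the 323 located members, 54.2% were listed higher only and 40.6% lower only. mmu_piR_030839 at chr17:27355157-27355186 had 119.8 and 78.6 in the wild types and 339.5 in Mtdh-/- 2. mmu_piR_014992 at chr17:27355044-27355073 had 112.6 and 57.5, and 362.2 in Mtdh-/- 2. mmu_piR_015513, at chr17:27357333-27357362, had 94.8 and 32.0, with 410.8 in Mtdh-/- 2 and 152.2 in Mtdh-/- 3. These members were listed higher, which by the rule places their Mtdh-/- values above both wild types.
The lower ones were mmu_piR_021330 (0 and 34.2 in the wild types, 0 in Mtdh-/- 2, 3.4 in Mtdh-/- 3), mmu_piR_037465 (78.3 and 28.9, with 11.5 in Mtdh-/- 2) and mmu_piR_005271 (14.5 and 42.2, with 7.4 in Mtdh-/- 1). Only the last 2 lay below both wild types. On the same strand of chromosome 17, Gm10505 (chr17:27325970-27344030) held 10 members, 5 listed higher only, 3 lower only and 2 both ways. These genes and members were singled out after their values were seen.

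Gm5878, a lincRNA on the minus strand of chromosome 6 (chr6:85112000-85115216), was the reverse. Of 12 members, 10 were listed lower only, 1 higher only and 1 both ways, beside 40.6% lower only of the 323 located members. The contrast with Gm49794 was drawn after the values were seen. Its members had a median log2 ratio of wild type 2 to wild type 1 of 1.58, against 0.23 over all members. By the list rule, a high wild type 2 favours lower calls. mmu_piR_020892 at chr6:85115187-85115216 had 57.9 in wild type 1, 613.1 in wild type 2 and 121.1, 69.2 and 84.1 in Mtdh-/- 1, 2 and 3. It was thus listed lower in all 3 libraries while wild type 1 lay below every Mtdh-/- library.
mmu_piR_008509 at chr6:85112445-85112473 had 151.4 and 272.3 in the wild types and 77.6 in Mtdh-/- 2, below both. mmu_piR_028517 at chr6:85113109-85113138 had 69.8 in wild type 1 and 107.9 in Mtdh-/- 3, but 14.4 in wild type 2, 14.8 in Mtdh-/- 1 and 2.1 in Mtdh-/- 2. So even within 1 precursor the members did not share a library order.

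At 1700001L05Rik, a lincRNA on the minus strand of chromosome 15 (chr15:83354580-83365335), 8 of 15 members were listed higher only and 6 lower only. mmu_piR_036192 at chr15:83354948-83354977 had 288.4 and 335.9 in the wild types and 132.0 in Mtdh-/- 1, below both. mmu_piR_036532 at chr15:83355775-83355804 had 80.3 and 202.6, and 56.6 in Mtdh-/- 2. mmu_piR_012938 at chr15:83354729-83354757 had 9.2 and 65.8 in the wild types and 6.8, 10.5 and 1.1 in Mtdh-/- 1, 2 and 3, with wild type 1 again within the Mtdh-/- range. 4930444F02Rik, a lincRNA on chromosome 10 (chr10:18797302-18800623), was singled out after its values were seen. All 6 of its members were listed lower in Mtdh-/- 2, beside 31.9% of the 323 located members. One of the 6, mmu_piR_028891, was listed higher in Mtdh-/- 1, with 104.4 there against 7.9 and 62.6 in the wild types and 10.5 in Mtdh-/- 2.

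The remaining printed members of the all-lower class came from other genes. mmu_piR_025419 lies at chr2:92561529-92561558 in the processed pseudogene Gm13815, with 10.8 and 126.2 in the wild types and 9.9, 10.7 and 14.7 in Mtdh-/- 1, 2 and 3. mmu_piR_009404 lies antisense to the processed pseudogene Gm48448 at chr10:86570997-86571025, with 1.3 and 43.5 against 0.9, 0 and 2.3. In both, wild type 2 alone was high.
mmu_piR_016731 lies in 4933440M02Rik at chr7:125329945-125329973, with 5.3 and 32.4 in the wild types and 0.9, 0 and 2.3 in the Mtdh-/- libraries, all below wild type 1 but by a few units. mmu_piR_018484 lies in 4933404O12Rik at chr5:136934518-136934546, with 11.9 and 91.1 against 15.8, 6.3 and 1.1.

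Among 3′ UTR precursors, Cbl, which encodes an E3 ubiquitin ligase, held 12 members on chromosome 9 (chr9:44145691-44149060). Of these 8 were listed higher only, 3 lower only and 1 both ways, beside 54.2%, 40.6% and 5.26% of the 323 located members. mmu_piR_013309, at chr9:44149032-44149060, had 30.3 and 251.9 in the wild types, 489.5 in Mtdh-/- 1, 54.5 in Mtdh-/- 2 and 42.0 in Mtdh-/- 3. It was listed higher in the first and lower in the others, and the Mtdh-/- libraries lay on both sides of wild type 2. mmu_piR_004496 had 41.5 and 15.1, with 6.3 in Mtdh-/- 2. In Tbl2 (chr5:135160432-135162664), 7 members lay in the 3′ UTR, 5 of them listed lower only, beside 40.6% of the 323 located members. Nemp1, the gene of a nuclear envelope protein, held 7 members in its 3′ UTR and 1 in a coding exon.

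By class of precursor, the lists are given side by side for the 180 members sense to lincRNAs and the 52 sense to 3′ UTRs. In Mtdh-/- 1, 26.7% and 11.5% were listed higher and 15% and 13.5% lower. In Mtdh-/- 2, 28.9% and 30.8% were listed higher and 30.6% and 44.2% lower. In Mtdh-/- 3, 10% and 5.77% were listed higher and 15% and 21.2% lower. The widest gaps were thus in the higher list of Mtdh-/- 1 and the lower list of Mtdh-/- 2, and the 3′ UTR shares rest on 6 and 23 members there. Members of both classes had near-equal wild-type levels, with medians of 14.5 and 24.4 in wild type 1 and 2 for lincRNAs and 15.95 and 23.1 for 3′ UTRs. No test was made of these differences, since the members were chosen by the same contrast.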

How the data were processed

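Small RNA of testis was measured in 2 wild-type and 3 Mtdh-/- libraries. Testes were flash frozen, RNA came from a mirVana kit and the libraries from an Illumina TruSeq kit, per the labels. The read aligner Novoalign (2.07.11) is named by the submitters' processing notes; how adapters were trimmed, which genome build was used and how piRNA values were scaled is not stated there. Each list holds, per the file headers, the authors' normalized tag value (a signal) in each library, and their signed fold score, in which 10 stands added to test and control. piRNAs under 2-fold are not listed. Names and sequences are those of piRNAbank. The authors also deposited raw miRNA tag counts, used here only to check the tissue.

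All 5371 deposited fold scores were recomputed within 1%. Members with a value but not in a list come from 8 group tables that the authors selected by fold and p-value. 1 line of the 6 lists was empty and 199 further per-library columns were not used. No test was made. Sequences were matched exactly to GENCODE M21 transcripts (GRCm38), a step tested on simulated data, and members with 1 place were joined into loci within 10 kb. Named members were those listed 1 way in all 3 libraries (up to 8 per direction), the 6 most abundant, the extreme and the threshold member of each list, 5 groups with the same first 20 nt, and 2 members of each of the 5 leading loci; others were chosen after their values were seen. The members and lists were chosen with earlier results of these data known. Python 3.11.15, numpy 2.4.6, scipy 1.17.1 and matplotlib 3.10.9 were used.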

Additional observations from a re-analysis of the deposited data

How the results depend on the processing

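The listed members are only those past the authors' threshold, so no setting can add a member, and with 1 in place of 10 added all listed members stayed past 2-fold by construction. With 50 added, 136, 192 and 19 members stayed past 2-fold higher and 92, 126 and 52 lower in Mtdh-/- 1, 2 and 3. At 4-fold, 87, 106 and 0 stayed higher and 53, 68 and 43 lower. With 1 wild-type library left out at a time, the higher lists kept 399 to 475, 555 to 563 and 50 to 163 members and the lower lists 159 to 267, 333 to 551 and 11 to 362. Among the 161 members with 5 values, leaving out each library in turn gave 26 to 65 with every Mtdh-/- library higher and 31 to 116 with every one lower, and a median log2 ratio from -2.02 to 0.20. That median was -2.01 with 1 added and -0.57 with 50 added. The share of members at least 2-fold apart between the wild types was 55.9% with 1 added, and the share holding TGGA at base 5 to 21 was 13% among members at 1 place. Against each wild type alone, a setting added after the values were seen, that share was 3.69% to 4.53%, 4.63% to 5.54% and 6.67% to 8.93% of the members past 2-fold higher and 17.6% to 52.8%, 18% to 35.9% and 0% to 40.1% of those past 2-fold lower. The cause of these changes was not tested. Loci with at least 5 members numbered 20 to 25 over joining distances of 5 and 50 kb and with members at up to 10 places included, and base 10 stayed within its interval. The tag number behind each value is unknown, which limits what low values can show. No paired analysis was possible because the labels do not pair wild-type with Mtdh-/- libraries. Only piRNAs past a fold threshold are at hand, and no test was made on them.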
